A study of Mus musculus with 6 samples.

Results

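The 200 most abundant transcripts of wild-type germinal vesicle (GV) oocytes are described here, out of 17577 genes listed in each library. They were chosen by ranking all listed genes on the mean FPKM (sequenced fragments scaled to transcript length and to the mapped fragments of the library) of the 3 wild-type (WT) libraries, so the abundance values below are the values that chose the members and are given as a description, without tests. FPKM is divided by transcript length, so levels can be set side by side between genes. The libraries were labelled as oocytes from the ovary of 12-week-old C57BL/6 J mice of wild type genotype. The study compared such mice with Bnc1tr/tr mice, and the Bnc1tr/tr libraries were not used here. According to the methods of the study, GV oocytes were taken by puncture from antral follicles after injection of pregnant mare serum gonadotropin, and the cDNA of a single oocyte was made and amplified by a modified Smart-seq2 procedure, which copies polyadenylated RNA from an oligo-dT primer. The labels do not say whether the 3 libraries came from separate animals. A figure legend of the study gives 3 biological replicates in each group, analysed in duplicate, without saying that these were separate animals. The spread between the libraries may therefore be partly technical. Each library stands for the RNA that was captured and amplified from its input rather than for an absolute amount per oocyte.

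A GV oocyte is arrested in prophase of the first meiotic division. During its growth it stores the maternal mRNAs and proteins on which meiotic maturation, fertilisation and the earliest cleavage divisions depend, since transcription stops in the fully grown oocyte and resumes in the embryo. Among its known products are the proteins of the zona pellucida (the coat around the egg), factors secreted to the granulosa cells, oocyte forms of chromatin proteins, and members of multigene families that are expressed chiefly in oocytes.

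The 5 oocyte markers looked up were named with earlier results of these data known. All 5 were among the 200 members, which describes the libraries and is no check of their label. Dppa3, which protects the maternal genome from changes in DNA methylation, was ranked 2 with 5462, 8032 and 10706 FPKM in WT replicates 1, 2 and 3. H1foo, the oocyte linker histone, was ranked 4, Zp3, a zona pellucida protein, 18, Gdf9, a growth factor secreted by the oocyte, 35, and Ooep, a subunit of the subcortical maternal complex, 73. Together the 5 markers held 3.03%, 3.38% and 3.02% of the FPKM totals. Of other oocyte genes, Bmp15 and Zp2 were members. Nobox (rank 509), Figla (1274), Lhx8 (1526), Kit (2970) and Sohlh1 (13302) fell outside the list. Markers of other ovarian cells were low by comparison. The 12 listed granulosa and cumulus cell markers, of 15 looked up, summed to 38.3, 40.3 and 22.98 FPKM, with 4 of 12 at a mean of 1 FPKM or more and Cyp19a1 (aromatase) the highest at 23.4, 29.0 and 17.4 FPKM. Foxl2, a defining granulosa cell factor, had 0.03, 0 and 0 FPKM. Of the listed markers of theca and stroma, 2 of 5 were listed at 0 in all libraries, and the 5 summed to between 1.40 and 2.09 FPKM. The 4 endothelial markers summed to between 10.1 and 11.7 FPKM, most of it Pecam1 (7.55 to 9.92 FPKM), with Cdh5 listed at 0. Of 7 listed markers of blood and immune cells, 6 were listed at 0. None of these markers was among the 200 members.

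The FPKM totals were 671768, 680259 and 724550 in WT replicates 1, 2 and 3, with 14565, 14576 and 13896 genes above 0 and 9747, 9748 and 9518 genes at 1 FPKM or more. The 200 members held 41.2%, 43.1% and 46.4% of these totals, a mean of 43.6% ± 2.61 (SD, n = 3). The share was highest in replicate 3. The abundance was concentrated at the top of the list: the single most abundant gene held 1.23% ± 0.0812, the leading 10 genes held 9.53% ± 0.916, the leading 50 held 23.6% ± 1.74 and the leading 100 held 32.5% ± 2.04 (SD, n = 3). With the next genes by rank included, 500 genes held 60.6% ± 2.74 and 1000 genes held 74.3% ± 2.36. By the order of each library's own values, 50% of the total was reached with 322, 294 and 240 genes. The mean FPKM of the members ran from 8484 at rank 1 to 609.7 at rank 200, and 95, 95 and 113 genes reached 1000 FPKM in the 3 libraries. The steps between low FPKM values correspond to about 15100000, 16000000 and 21900000 fragments, an estimate that is least certain for replicate 3. At these depths the counting error of the median member would be under 1% of its value and that of the member with the fewest fragments under 3%, as far as each fragment is a separate molecule. Amplified fragments without molecular tags are not, so this covers counting error only.

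**Figure D1:**
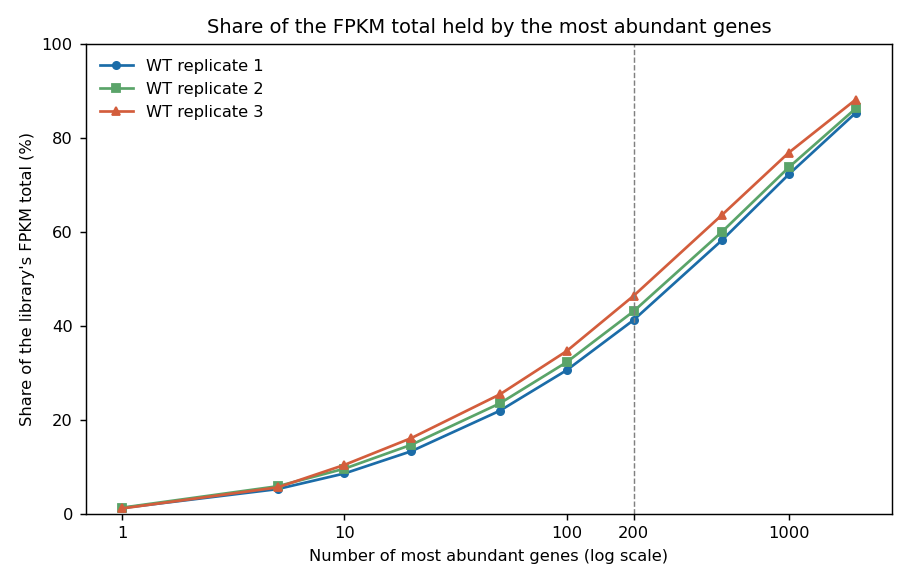
Share of each library's FPKM total (y axis, %) held by the most abundant genes (x axis, number of genes by rank of mean FPKM, log scale), 1 line per WT replicate, with a dashed line at 200 genes. At 200 genes the lines sit at 41.2%, 43.1% and 46.4%, with replicate 3 the highest.

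The most abundant transcript was Ldhb, the B subunit of lactate dehydrogenase, with 8285, 8881 and 8284 FPKM. It alone held 1.23% of the total, and its coefficient of variation (CV, SD divided by the mean) was 4.05%. Dppa3 followed at 8067 ± 2622 FPKM (mean ± SD, n = 3), with a CV of 32.5%, and its values in the 3 libraries ranged from below to above those of Ldhb, so the order of the leading pair was not fixed by these libraries. Ubb, which encodes polyubiquitin, reached 7700 ± 755.4 FPKM. H1foo reached 7401 ± 666.5 FPKM. Clec16a, which encodes an endosomal protein known for a part in mitophagy, reached 7061, 7279 and 6524 FPKM at rank 5. The annotated transcripts of Clec16a range from 356 to 6244 bases, so its FPKM may depend on which of them the length was taken from.

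Below these 5 genes the list turned to oocyte gene families and meiotic genes. Fbxw24, an F-box and WD40 gene, had 4995, 5953 and 7699 FPKM at rank 6. Pttg1, or securin, which holds separase inactive until anaphase, had 5013, 5563 and 8059 FPKM at rank 7, and Omt2b, an oocyte maturation gene, had 4073, 4824 and 7652 FPKM at rank 8. All of these were lowest in replicate 1 and highest in replicate 3. Tcl1, a co-activator of the AKT kinase, was steadier at 5207 ± 255.04 FPKM (rank 9). Gm813 and E330017A01Rik (ranks 10 and 13), which RefSeq names Ftdc1 and Ftdc2, had means of 4358 and 4110 FPKM and together held 1.22% ± 0.254 of the total. Both lie on chromosome 16, and none of their 31-base words was found in transcripts of other genes. Obox2, an oocyte homeobox gene, was ranked 11 at 4234 ± 1352 FPKM and Ccdc82, a coiled-coil gene, 12 at 4162 ± 151.0 FPKM. Fbxw14, Fbxw28, Fbxw15 and Fbxw16 filled ranks 14 to 17 with means of 3981, 3824, 3637 and 3158 FPKM. Zp3 (rank 18), Spin1 (rank 19), a reader of histone methylation, and Oog3 (rank 20), an oogenesin, closed the leading 20.

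**Figure D2:**
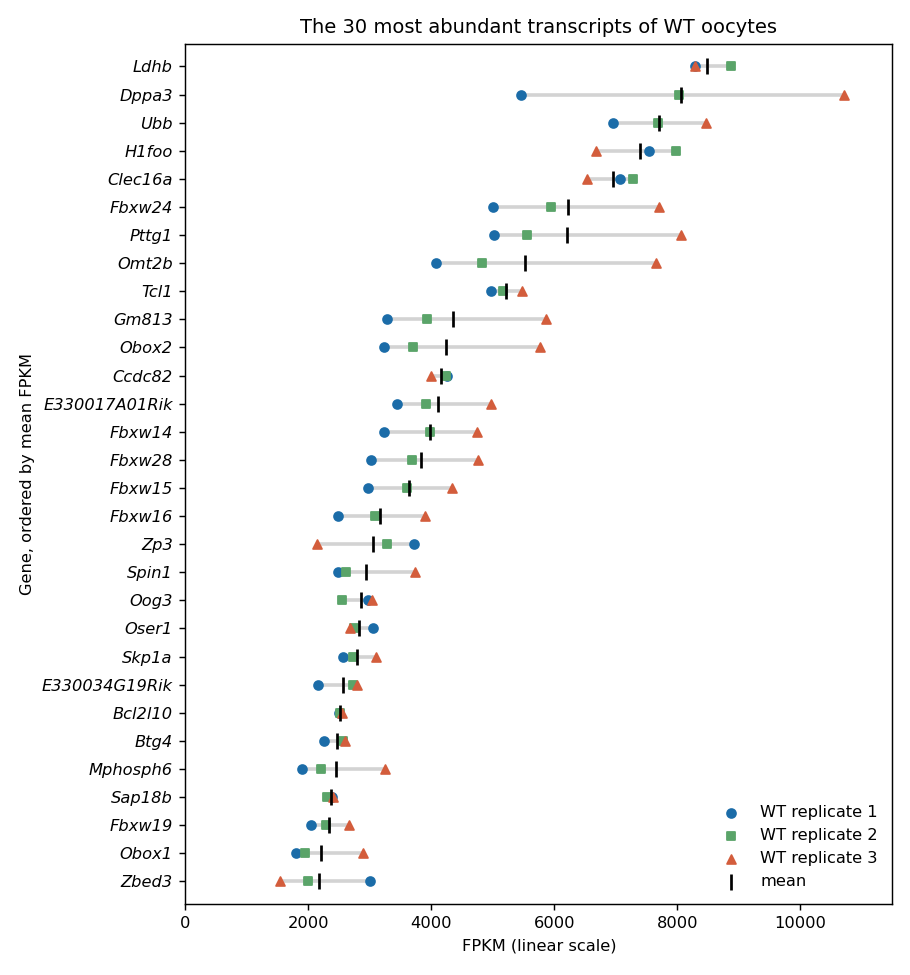
FPKM (x axis, linear scale) of the 30 most abundant genes (y axis, ordered by mean FPKM) in WT replicates 1 (circles), 2 (squares) and 3 (triangles), with the mean as a vertical tick and a grey line from the lowest to the highest library. Dppa3 spans 5462 to 10706 FPKM, while Bcl2l10 spans 2502 to 2542 FPKM.

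The members were sorted into 23 functional classes by gene symbol, and 55 of the 200 fell in none. Among these were genes related to a class, such as Bpgm, Rpl37rt, Paip1 and Paip2, so a class count covers only the symbols matched. The fullest class was that of the oocyte multigene families (Fbxw, Obox, Tcl1, Oog, Oas1, Omt2, Rfpl4 and genes with a Pramel or Pramef symbol): 27 of its 50 listed genes were members, none of them with a Pramel or Pramef symbol, and these 27 held 8.01%, 8.94% and 10.2% of the totals (mean 9.04% ± 1.09, SD, n = 3). By comparison 200 of all 17577 listed genes were members. Maternal chromatin, DNA methylation and histones held the next largest share with 8 members (3.49% ± 0.321), ahead of the 14 genes with predicted or clone names (3.29% ± 0.255) and 8 ubiquitin and SUMO genes (2.51% ± 0.0141). The 13 members of oxidative phosphorylation, of 109 listed, held 1.44% ± 0.221. The 55 members in no class held 10.3% ± 0.205.

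**Figure D3:**
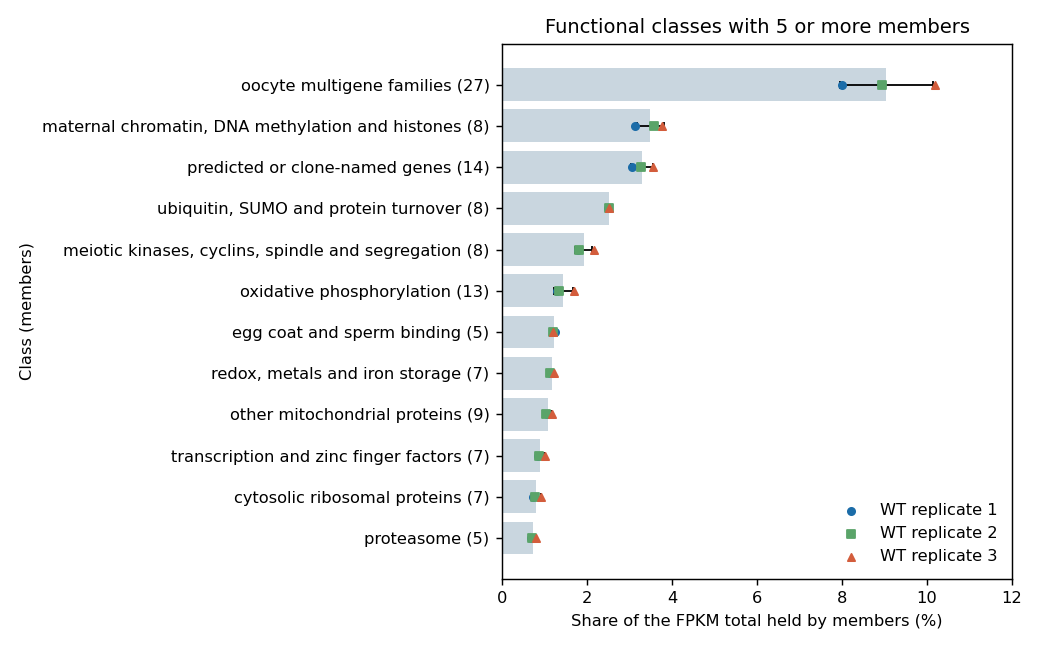
Share of the FPKM total (x axis, %) held by the members of each functional class with 5 or more members (y axis, number of members in brackets). Bars are means and error bars SDs over the 3 WT replicates, whose values are the points. The oocyte multigene families hold 9.04%, more than any other class drawn.

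The Fbxw family contributed 12 of the 27 members of the leading class. These genes encode proteins with an F-box, the part that binds SKP1 in SCF ubiquitin ligases, followed by WD40 repeats. All 15 listed Fbxw13 to Fbxw28 genes had a mean of at least 1 FPKM, 12 of them were members, and the 15 together held 3.87%, 4.69% and 5.32% of the totals (4.63% ± 0.723, SD, n = 3). The 12 members all lie on chromosome 9 in one stretch, chr9:109139454-109790660 (GRCm38.p6), and 12 of the 14 listed genes inside it were members. Fbxw13 (rank 222, mean 559.8 FPKM) and Fbxw23 (rank 615, mean 221.5 FPKM) are the remaining genes of the stretch. Fbxw17, which lies apart on chromosome 13, was ranked 3742 with 25.8, 21.9 and 6.99 FPKM. These 3 genes were named because they complete the family. Of the 12 members, 10 were highest in replicate 3 and all 12 were lowest in replicate 1. Over all 200 members, 134 were highest in replicate 3 and 114 were lowest in replicate 1. Of the 9722 genes at a mean of 1 FPKM or more, 3131 were highest in replicate 3 and 2652 lowest in replicate 1. Fbxw14 and Fbxw28 shared 70.4% and 73.9% of their 31-base transcript words with other genes, so their separate values depend on how the authors' software divided reads between near copies. The other 10 members shared between 14.2% and 33.3%.

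The sequences before the annotated start sites were compared because the Fbxw members lie next to each other on the genome. RefSeq promoters (GRCm38.p6), the first listed for each gene, matched 157 of the 200 members and 10 of the 12 Fbxw members. The longest run shared by all 10 Fbxw promoters within 250 bases before the start was AAATCTTTGGCC, of 12 bases, whose first base lay 26 to 71 bases before the start. It was found on the gene strand in 10 of 27025 promoters in the table, which are those 10. The run was picked as common to these 10, so its presence in them was set by the search. Its absence from the others was not compared with that of other runs of 12 bases. The 100 bases before the start are shown for the 6 most abundant Fbxw members, all on the minus strand, written 5′ to 3′ on the gene strand, from chr9:109626060-109626159 (Fbxw24), chr9:109287677-109287776 (Fbxw14), chr9:109339660-109339759 (Fbxw28), chr9:109568263-109568362 (Fbxw15), chr9:109449141-109449240 (Fbxw16) and chr9:109495855-109495954 (Fbxw19). Capitals mark the shared run and, where it begins 15 to 45 bases before the start, a TATA-like hexamer (TATAAA, the variant form TATAAG, the variant form TTTAAA or the variant form TTTAAG).
Fbxw24: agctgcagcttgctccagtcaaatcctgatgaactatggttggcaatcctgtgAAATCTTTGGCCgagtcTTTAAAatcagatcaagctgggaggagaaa
Fbxw14: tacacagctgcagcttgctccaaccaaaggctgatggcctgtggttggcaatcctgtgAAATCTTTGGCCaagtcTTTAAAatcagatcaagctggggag
Fbxw28: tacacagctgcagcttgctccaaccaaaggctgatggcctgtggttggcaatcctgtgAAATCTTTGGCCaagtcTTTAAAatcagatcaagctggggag
Fbxw15: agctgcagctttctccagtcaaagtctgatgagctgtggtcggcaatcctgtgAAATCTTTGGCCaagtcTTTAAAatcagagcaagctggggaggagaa
Fbxw16: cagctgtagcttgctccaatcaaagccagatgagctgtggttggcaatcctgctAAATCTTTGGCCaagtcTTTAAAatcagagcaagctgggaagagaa
Fbxw19: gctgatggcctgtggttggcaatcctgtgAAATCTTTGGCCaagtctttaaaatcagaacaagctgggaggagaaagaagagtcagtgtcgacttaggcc
The printed stretches of Fbxw14 and Fbxw28 are the same. In Fbxw19 the letters tttaaa follow the shared run at the same distance as in the others, but farther from the annotated start and outside the window searched.

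A TATA-like hexamer in that window was found on the gene strand before 7 of the 10 Fbxw members (70%), before 11 of the 23 members of the oocyte multigene families with a promoter (47.8%) and before 23 of the 157 members (14.6%). These groups are nested, so the same 7 Fbxw promoters, of genes alike in sequence, count in each of them. The share was 3.14% for ranks 201 to 400, 4.26% for genes at a mean of 1 FPKM or more and 6.47% for all promoters of the table. None of the 27 mitochondrial, proteasome, ribosomal and translation factor members with a promoter held it. So few promoters cannot be set apart from the 4.26% of genes at 1 FPKM or more. The multigene families also had few CpG dinucleotides before the start, with a median observed-to-expected ratio of 0.0828, beside 0.649 for the members, 0.736 for genes at 1 FPKM or more and 0.378 for all promoters of the table. The hexamer TAATTG, which the oocyte homeobox factor NOBOX is known to bind, or its relatives by a changed letter, TAGTTG for the middle of the motif and TAATTA for its end, were found on either strand in 12.7% of the members' promoters and in 11.55% of those of genes at 1 FPKM or more, beside 16.3% of all promoters of the table. A match is a description of the letters and says nothing about binding. The 100 bases before the start are shown for 6 further members, to set oocyte genes beside the broadly expressed Ldhb and Ubb, in the same orientation and with the same capitals for a hexamer, from chr7:15547157-15547256 (Obox1, plus strand), chr7:15750270-15750369 (Obox5, plus strand), chr5:135980005-135980104 (Zp3, plus strand), chr6:115944831-115944930 (H1foo, plus strand), chr6:142507958-142508057 (Ldhb, minus strand) and chr11:62551071-62551170 (Ubb, plus strand).
Obox1: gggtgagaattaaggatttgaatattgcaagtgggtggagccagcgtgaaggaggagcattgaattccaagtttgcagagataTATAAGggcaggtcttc
Obox5: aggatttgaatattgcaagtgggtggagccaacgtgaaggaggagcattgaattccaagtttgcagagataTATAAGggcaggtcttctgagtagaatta
Zp3: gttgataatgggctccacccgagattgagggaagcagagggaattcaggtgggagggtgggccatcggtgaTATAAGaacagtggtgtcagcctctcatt
H1foo: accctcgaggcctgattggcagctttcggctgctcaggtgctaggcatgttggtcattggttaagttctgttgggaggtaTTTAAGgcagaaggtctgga
Ldhb: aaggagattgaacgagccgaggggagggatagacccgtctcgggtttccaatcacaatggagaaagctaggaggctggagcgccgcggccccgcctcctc
Ubb: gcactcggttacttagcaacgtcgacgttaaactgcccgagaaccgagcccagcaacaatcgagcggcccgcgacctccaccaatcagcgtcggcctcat
Obox1, Obox5 and Zp3 carry TATAAG and H1foo carries TTTAAG, while Ldhb and Ubb hold none of the hexamers in the window. These genes were picked by name as examples. Only 23 of the 157 members with a promoter held a hexamer there, and a contrast between oocyte genes and broadly expressed genes was not tested.

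The other oocyte families were smaller. Obox homeobox genes had 3 members of 6 listed, Obox2 (3235, 3693 and 5773 FPKM), Obox1 (1792, 1940 and 2881 FPKM) and Obox5 (1417, 1632 and 2235 FPKM), all 3 highest in replicate 3, while Obox7 (rank 291) had a mean of 438.8 FPKM and Obox3 and Obox6 had means of 2.25 and 0.400 FPKM. The Obox genes share much sequence, with 80.3% of the words of Obox2 and 70.8% of those of Obox1 found in other genes, so their separate values are uncertain. Of the Tcl1 genes on chromosome 12, Tcl1, Tcl1b1 (847.0 ± 25.7 FPKM) and Tcl1b2 (704.9 ± 44.5 FPKM) were members, and the other 3 listed genes were ranked 301 to 728. The 6 Tcl1 genes held 1.11%, 1.11% and 1.09% of the totals, so this family varied little between libraries. Omt2b and Omt2a held 1.05% ± 0.309 and lie beside Dppa5a and Ooep at chr9:78311972-78378588, a stretch in which 4 of 5 listed genes were members. The Oas1 family comprises relatives of the interferon-induced oligoadenylate synthetases. Oas1e, Oas1h and Oas1d were members, with means of 1582, 1154 and 878.7 FPKM, while Oas1a, the relative best known for interferon responses, had a mean of 0.457 FPKM. The 3 Oas1 members were all lowest in replicate 3, which is the opposite of the Obox and most Fbxw members. Over all 200 members, 134 were highest and 49 lowest in replicate 3. Of the 9722 genes at a mean of 1 FPKM or more, 3131 were highest and 4928 lowest there. A lowest value in replicate 3 was therefore not particular to the Oas1 genes. Among the genes with clone names, RefSeq assigns 6 members to the Pramel family, of 39 Pramel genes listed, and 21 of the 39 were below 1 FPKM. The most abundant of the 6 were Gm13084 (Pramel26) at 1386 ± 136.5 FPKM and Gm10436 (Pramel51) at 1287 ± 70.9 FPKM, with 51.9% and 78.5% of their words shared. Among the clone-named members that RefSeq gives no family name, the leading ones were E330034G19Rik (2148, 2733 and 2785 FPKM) and E330021D16Rik (1977, 1756 and 1515 FPKM), of which the former was lowest and the latter highest in replicate 1.

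Genes of the egg coat and of gamete interaction held 1.24%, 1.21% and 1.196% of the totals through 5 members of 10 listed. Zp3, the zona pellucida protein known as a sperm receptor, had 3719, 3283 and 2142 FPKM, and Zp2 had 783.8, 689.7 and 490.6 FPKM. Both were highest in replicate 1 and lowest in replicate 3. The oocyte-secreted proteins Oosp2 (1539, 1734 and 2734 FPKM), Oosp3 (1104, 1222 and 1922 FPKM) and Oosp1 (1167, 1283 and 1376 FPKM), which lie next to each other on chromosome 19, were lowest in replicate 1 and highest in replicate 3. The near-constant share of the class therefore joins members that varied in opposite directions. Of the secreted growth factors of the oocyte, Gdf9 had 2385, 2466 and 1183 FPKM and Bmp15 had 1065, 775.6 and 717.7 FPKM. Gdf9 was one of 6 members whose highest library exceeded the lowest by more than 2-fold, and the only member of the 6 that was lowest in replicate 3.

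The subcortical maternal complex, a protein assembly under the oocyte surface that early cleavage needs, was represented by Ooep and Zbed3. Ooep was among the steadiest members with 1247, 1226 and 1194 FPKM. Zbed3 had 3000, 1990 and 1541 FPKM, highest in replicate 1. Further subunits fell outside the list: Padi6 was ranked 211, Khdc3 227, Tle6 263 and Nlrp5 460. The means of these were 593.3, 546.3, 486.0 and 288 FPKM. Nlrp14 was the only member of 12 listed oocyte Nlrp genes, all of which exceeded 1 FPKM, with 1068, 905.7 and 642.6 FPKM, and Khdc1b, a KH-domain gene, reached 734.1 ± 23.3 FPKM.

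Chromatin genes included oocyte forms and general ones. Beside Dppa3 and H1foo, Spin1 had 2485, 2608 and 3729 FPKM. H3f3b and H3f3a, which encode histone H3.3, the form that is laid down outside replication, had means of 2153 and 766.5 FPKM. H3f3b was highest in replicate 3 and H3f3a was lowest there, although they encode the same protein. Npm2, a nuclear chaperone of the egg, had 1101, 1290 and 1003 FPKM. The class thus had 8 members of 163 listed.

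Of 203 listed genes of meiotic kinases, cyclins, spindle and segregation, 8 were members, holding 1.92% ± 0.201 of the total. After Pttg1 came Birc5 (survivin), a subunit of the chromosomal passenger complex, with 1765, 1729 and 1813 FPKM. Ccnb1, the cyclin B1 partner of CDK1, had 1398, 1213 and 959.5 FPKM. Cks2, a small subunit of the CDK1 complex, had 872.2, 821.3 and 1264 FPKM. The remaining 4 members, Cks1b, Cenps, Tacc3 and Mad2l1, had means between 704.7 and 931.6 FPKM. Of these 8 members, 6 were highest in replicate 3, beside 134 of all 200 members, while Ccnb1 and Tacc3 were lowest there. Btg4, an adapter of the CCR4-NOT deadenylase that is needed to clear maternal mRNA during maturation, had 2471 ± 191.6 FPKM at rank 25. It was the only member of the 56 listed genes that were placed by symbol in the class of mRNA decay and small RNAs. Gtsf1, a factor of the transposon-silencing small RNA pathway, was placed in the class of maternal mRNA storage and had 1536, 1754 and 2732 FPKM. Zar1l of the same class, a relative of the maternal mRNA-binding protein ZAR1, had 767.7 ± 99.7 FPKM.

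Genes for mitochondrial energy supply and protein synthesis followed. Oxidative phosphorylation had 13 members, led by Atp5e (1091, 1096 and 1368 FPKM), Atp5j2 and Atp5h of ATP synthase and Cox4i1 of cytochrome c oxidase, whose means were 1185, 822.3, 800.2 and 871.0 FPKM. All 13 were highest in replicate 3, beside 134 of all 200 members. A further 15 genes of this class lay in ranks 201 to 400. Other mitochondrial proteins gave 9 members, led by Chchd2 (1171 ± 88.5 FPKM), Timm17a, an import channel subunit (1151 ± 215.6 FPKM), Mrps33 (1111 ± 311.0 FPKM) and Mrpl48 (796.9 ± 83.6 FPKM), the last pair being mitochondrial ribosomal proteins. Ldhb was the only member of the 110 listed genes that were placed by symbol in energy and carbon metabolism. Bpgm, which encodes bisphosphoglycerate mutase, was also a member (rank 63, mean 1346 FPKM) but fell in no class. Of 87 listed cytosolic ribosomal protein genes, 7 were members and 86 were at 1 FPKM or more, and the whole class held 2.90% ± 0.233 of the total, beside 0.801% ± 0.108 for its members. Rpl5, with 1106, 1157 and 1143 FPKM, varied little, whereas Rpl35 (677.9, 785.4 and 1158 FPKM) and Rps29 (719.8, 760.2 and 1005 FPKM) were higher in replicate 3. Naca and Eif1ax, of the nascent chain complex and of initiation, were the 2 translation factor members, at 928.3 and 700.7 FPKM.

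Protein turnover was led by Ubb and by Skp1a, the SKP1 adapter of SCF ligases, which had 2560, 2726 and 3093 FPKM at rank 22. Ube2t, a ubiquitin-conjugating enzyme of the Fanconi pathway, had 1776 ± 153.3 FPKM, and Uchl1, a ubiquitin hydrolase abundant in neurons and oocytes, had 1805, 1594 and 1288 FPKM. Of 52 listed proteasome genes, 5 were members (0.7203% ± 0.0665 of the total), namely the core particle subunits Psma2, Psma7, Psmb6, Psmb2 and Psmb7, with means from 672.0 to 1443 FPKM. All 5 were highest in replicate 3, beside 134 of all 200 members. Redox genes gave 7 members, led by Sod1 (2075, 1984 and 2452 FPKM), which removes superoxide, Glrx, or glutaredoxin (1464 ± 24.3 FPKM), and the peroxiredoxins Prdx1 and Prdx2 (1208 ± 80.0 and 1065 ± 58.8 FPKM). The chaperones were Pfdn4, a prefoldin subunit, Hsp90aa1 and Hspa8, with means of 1505, 1370 and 899.7 FPKM. Hspa8 was lowest in replicate 3 (681.8 FPKM), and Pfdn4 was highest there (2113 FPKM). Bcl2l10, an anti-apoptotic BCL2 relative of the oocyte, had 2502, 2510 and 2542 FPKM and the lowest CV of all members, and Orc5, an origin recognition subunit, had 778.8 ± 36.7 FPKM.

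The smaller classes held general cell functions. Of 714 listed transcription and zinc finger genes, 7 were members, among them the RNA polymerase II subunits Polr2d (1327 ± 29.4 FPKM), Polr2j (1262 ± 187.9 FPKM) and Polr2g (951.7 ± 211.7 FPKM) and Taf9 (727.6 ± 77.8 FPKM), a TFIID subunit of whose words 70.7% are shared with other genes. RNA processing gave Lsm10, Lsm3, Snrpe and Cpsf4l, with means from 621.0 to 763.5 FPKM. Tmsb10, which binds actin monomers, had 1413, 1304 and 2030 FPKM, and Dynlt1b and Dynlrb1, dynein light chains, had means of 726.6 and 652.1 FPKM. Calm2, a calmodulin gene, had 1237, 1620 and 2597 FPKM. Dad1, of the oligosaccharyltransferase, and Tmem14c had 812.0 ± 41.7 and 697.3 ± 109.0 FPKM. Among the members in no class, those after Clec16a and Ccdc82 were Oser1, an oxidative stress-responsive gene (3044, 2749 and 2684 FPKM), and Mphosph6, an exosome-associated factor (1904, 2198 and 3238 FPKM).

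The membership was compared between libraries. The 3 lists of 200 genes, each ranked in its own library, had 170 genes in common and 232 in their union. Replicates 1 and 2 shared 188 genes, replicates 2 and 3 shared 179 and replicates 1 and 3 shared 171. When the list was ranked on 2 libraries and looked up in the library left out, 178, 188 and 176 of the 200 genes were in the list of replicates 1, 2 and 3. The gene that fell farthest was Tle6, at rank 548 in replicate 3, where it had 256.4 FPKM, beside 704.0 and 497.6 FPKM in replicates 1 and 2. Over the 200 members, Pearson's r of log2 FPKM was 0.980 between replicates 1 and 2, 0.874 between 1 and 3 and 0.927 between 2 and 3. These are correlations across genes, which are not independent replicates. Over the 9722 genes at a mean of 1 FPKM or more, whose abundance spans a wider range, the same values were 0.989, 0.969 and 0.978 on log2(FPKM + 1).

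The spread between libraries was moderate for most members. The median CV was 14.5% (quartiles 8.91% and 23.3%), beside 13.97% for ranks 201 to 400, 13.3% for ranks 401 to 1000 and 20.1% for ranks 4001 to 8000. The leading 50 genes had a median of 18.9%, above the 12.6% of ranks 51 to 100. Of the 200 members, 6 (3%) differed by more than 2-fold between the highest and the lowest library, against a background of 17.8% of the 9722 genes at a mean of 1 FPKM or more. The share was 2.5% for ranks 201 to 400, 4.83% for ranks 401 to 1000 and 19.3% for ranks 4001 to 8000, so the members were close to the genes of the next ranks and the background is set by less abundant genes. The rank itself favours genes that are high in any library, so this is a description. The largest CV was that of Wtap, a subunit of the mRNA methyltransferase complex, with 450.4, 551.4 and 1182 FPKM (54.5%). Dynlt1b, Fcf1, a ribosome biogenesis factor, Sub1, a transcription co-activator, and Calm2 followed with CVs from 44.8% down to 38.6%. These genes and Wtap were all highest in replicate 3, as were 134 of all 200 members. The smallest CVs were those of Bcl2l10 (0.850%), Gm2042 (1.14%), Rdx, which encodes the membrane-to-actin linker radixin (1.30%), Hmgn1, a nucleosome-binding protein (1.61%), and Glrx (1.66%).

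**Figure D4:**
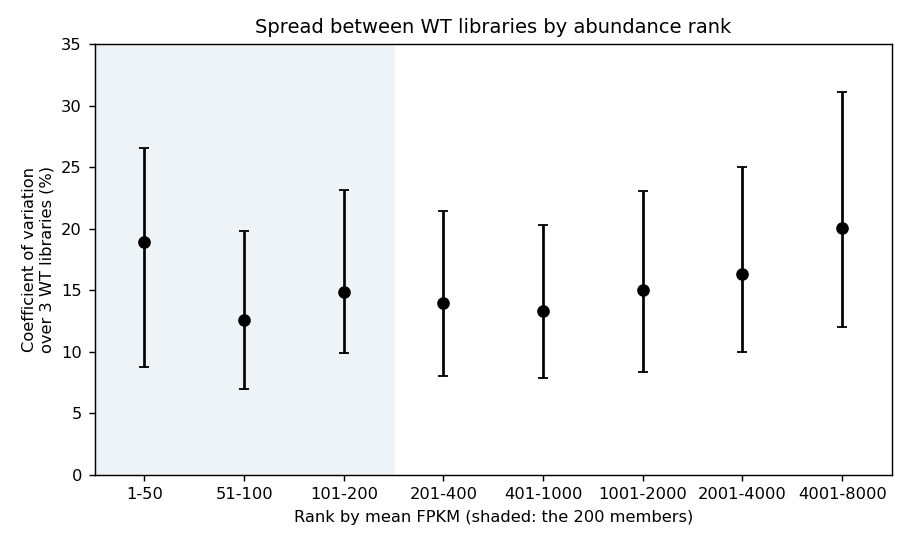
Coefficient of variation over the 3 WT libraries (y axis, %) in groups of genes by rank of mean FPKM (x axis). Points are medians and bars run from the lower to the upper quartile, with the groups of members shaded. The median is 18.9% for ranks 1 to 50, 12.6% for ranks 51 to 100 and 20.1% for ranks 4001 to 8000.

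Replicate 3 stood apart from the others among the members. Its value was the highest for 134 of the 200, against a background of 32.2% of genes at a mean of 1 FPKM or more, while replicate 1 was the highest for 45 and replicate 2 for 21. Since genes high in any library are ranked higher, part of this count is set by the choice of members. The median log2 ratio of replicate 3 to the mean of the others was 0.25 over the members and -0.14 over the genes at 1 FPKM or more. The count depended on the scaling: it was 115 of 200 after each library was brought to a common FPKM total, beside 25.8% of genes, and 157 after median-ratio scaling, beside 40.4%. The median over the genes at 1 FPKM or more moved with it, to -0.24 and -0.02. The median CV of the members was 5.93% without replicate 3, beside 13.8% and 18.8% without replicates 1 and 2.

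The ratio moved with transcript length. Of the members with a median annotated transcript of at most 600 bases, 16 of 16 were highest in replicate 3, with a median ratio of 1.48. For lengths above 600 and up to 800 bases 36 of 36 were, with a ratio of 1.33. Above 800 and up to 1200 bases the count was 34 of 48 and the ratio 1.25. Above 1200 and up to 2000 bases it was 27 of 59 with a ratio of 1.01, and above 2000 bases 20 of 40 with a ratio of 1.02. Over all genes at 1 FPKM or more, the counts in the same length groups were 173 of 240, 248 of 379, 407 of 929, 582 of 2218 and 1686 of 5870. Most short genes were thus highest in replicate 3, whether or not they were members. After scaling to a common total, 48 of the 52 members of up to 800 bases remained highest in replicate 3, beside 34 of the 99 above 1200 bases. Over the 199 members with a length, Pearson's r of log10 length with the log2 ratio was -0.39 and Spearman's rho -0.46, and over 9636 genes at 1 FPKM or more they were -0.08 and -0.07, as correlations across genes that share the same 3 libraries. Among those genes the ratio was also highest for the shortest transcripts, with a median of 1.34 up to 600 bases and 0.887 above 2000 bases. With the GC content of the transcripts, Pearson's r of the log2 ratio was -0.20 over the members and -0.21 over those genes. A fall with length was not particular to replicate 3. For the log2 ratio of replicate 2 to replicate 1, r with log10 length was -0.25 over the members. It was -0.12 over those genes above 0 in both libraries. The members of oxidative phosphorylation, all 13 highest in replicate 3, had a median length of 642 bases, and the 5 proteasome members, also all highest there, had one of 1035.5 bases. Of the 2 translation factors, with a median length of 4493.5 bases, Naca had a log2 ratio of 0.17 and Eif1ax one of 0.09. Their annotated transcripts ranged from 885 to 6745 bases and from 416 to 5172 bases, so these lengths are uncertain. The lengths of the Fbxw members, which were mostly highest in replicate 3, ran from 1146.5 to 1877 bases. Length enters the FPKM itself, and the part of length or GC content in these differences was not tested.

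**Figure D5:**
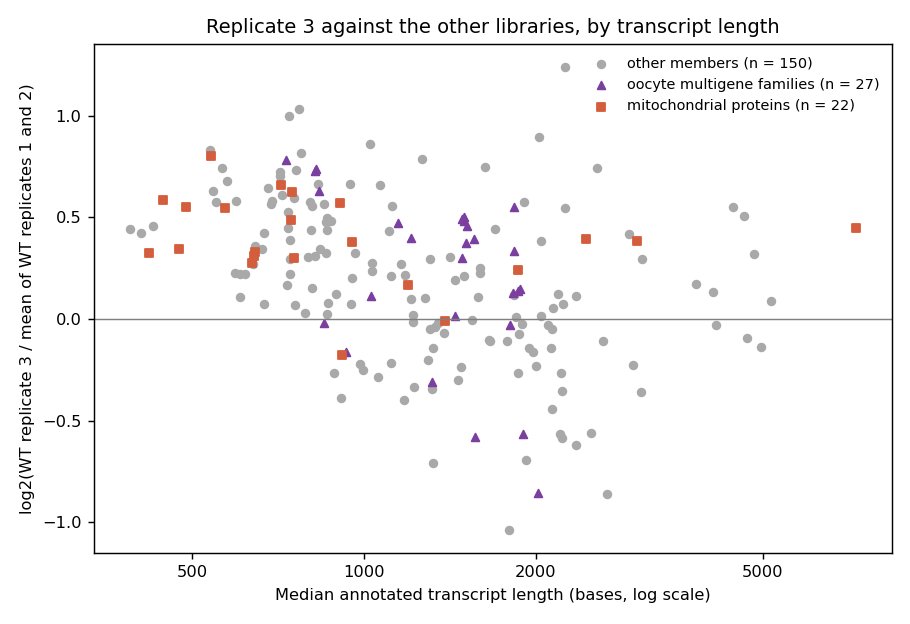
Log2 ratio of WT replicate 3 to the mean of WT replicates 1 and 2 (y axis) against the median annotated transcript length (x axis, bases, log scale) for the 199 members with a length. Each point is a gene, with the oocyte multigene families as triangles and the mitochondrial proteins as squares. All 52 members of up to 800 bases lie above 0.

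The members also differed from other genes in features that the rank did not use directly. Their median transcript length was 1197 bases (quartiles 782.5 and 1864), beside 2434 for genes at 1 FPKM or more, and 42.7% of them were below 1000 bases, beside 11.3%. Ranks 201 to 400 were alike, at 1152 bases and 38.5%. The median number of exons was 5 in the members and 8.5 in genes at 1 FPKM or more. Since FPKM divides by length, length and rank are not independent. Of the 200 members, 55 (27.5%) had another member within 200 kb on the genome, while in the next 4 groups of 200 ranks the number with a neighbour of the same group was 25, 16, 22 and 18. Chromosome 9 carried the most members with 25, or 4.42% of its genes at 1 FPKM or more, and 12 of these were the Fbxw genes. Over all chromosomes, the members were 200 of 9722 such genes. Stretches with 3 or more members included the Obox genes on chromosome 7, the Tcl1 genes on chromosome 12, the Oosp genes on chromosome 19, the Oas1 genes on chromosome 5 and a group of Pramel genes at chr4:143789334-143853637. A stretch without a shared family held Taf9, Mrps36 and Ccnb1 on chromosome 13.

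At the lower edge of the list the values were close together. The last 3 members were Cox5b (618.6 ± 127.6 FPKM), a cytochrome c oxidase subunit, Nsmce2 (612.1 ± 145.8 FPKM), a SUMO ligase of the SMC5/6 complex, and 0610009B22Rik (609.7 ± 146.6 FPKM). The 3 genes just outside were Fau (607.7 ± 91.2 FPKM), a ribosomal protein fusion gene, Oaz1 (607.6 ± 134.8 FPKM), the polyamine regulator antizyme, and Dpy30 (607.6 ± 173.0 FPKM), a histone methyltransferase subunit. These means lie within the spread between libraries, so the border at rank 200 separates no distinct groups.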

How the data were processed

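Only the 3 WT libraries were analysed. The FPKM values are used as deposited: the authors gave a table per library with a value per gene, and the submitters' processing notes name HISAT2 2.0.4, Bowtie2 2.2.5, RSEM 1.2.12 and the build GRCm38.p6, without their roles. No counts were used, and no value was filtered or log-transformed for the rank. RSEM divides reads between genes that share sequence, so near copies cannot be fully told apart.

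Genes were ranked by mean FPKM over the libraries, and shares are percentages of each library's FPKM total. The 25 gene symbols that had been turned into dates were restored through their gene IDs. Transcript lengths, exon numbers and shared 31-base words came from a GENCODE annotation of the same build, with a value for 199 of the 200 members. Gene positions and promoters came from RefSeq. Classes were assigned by symbol, each gene to the first of 23 that matched. Sequencing depth was estimated from the periodicity of low FPKM values over genes with a single annotated transcript. The rank and depth steps were tested on simulated data. Python 3.11.15, numpy 2.4.6, pandas 2.3.3 and matplotlib 3.10.9 were used.

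The genes named were the 20 most abundant, the 5 oocyte markers, the 4 leading members of each class, the 5 members of highest and of lowest CV, 3 genes on each side of rank 200 and the leading markers of other cells. A gene that this rule names is not reported here. Others were named after their values were seen, to complete a family or complex or to show a limit of the classes. The members, classes and lists were chosen with earlier results of these data known. Alternatives comprised other scalings, rank measures, pseudocounts of 1 and 0.1, a filter at 1 FPKM, weighting by length, exclusion of genes with shared sequence, other list sizes and leaving out each library. No test was run, since the abundance values chose the members.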

Additional observations from a re-analysis of the deposited data

How the results depend on the processing

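The share held by the 200 most abundant genes moved by less than its SD between libraries under every alternative run, from 42.1% with genes that share sequence left out to 43.7% with the filter at 1 FPKM, and from 42.3% to 44.8% when each library was left out in turn. Between 189 and 198 of the 200 members were kept without a library, 190 with the median as rank measure, 178 without genes of shared sequence and 137 when values were multiplied by transcript length. That last setting, which weights genes by fragments rather than molecules, left 3 members of oxidative phosphorylation in place of 13, 5 other mitochondrial proteins in place of 9 and 2 ribosomal proteins in place of 7. Leaving out genes of shared sequence left 7 predicted or clone-named members in place of 14. Lists of 100 and 500 genes had 83 and 427 genes in common between the 3 libraries, as their sizes set. The median CV of the members ran from 5.93% without replicate 3 to 18.8% without replicate 2. The cause was not tested. It was 13.5% with a common total and 18.04% with median-ratio scaling, and as an SD of log2(FPKM + 1) the spread was 0.21. Counts were followed for the 12 classes with 5 or more members, and moved by at most 1.5 times under the other alternatives. No paired analysis was possible because libraries of a single genotype were described and no groups were compared. The depth was only estimated, and 3 libraries limit every SD.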

Other observations

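The next 200 genes, ranks 201 to 400 with means from 607.7 down to 327.2 FPKM, had another make-up than the 200 most abundant. Only 4 genes of the oocyte multigene families lay there, beside 27 among the members, and 1 gene with a predicted or clone name, beside 14. Oxidative phosphorylation supplied 15 genes, beside 13, cytosolic ribosomal proteins 11, beside 7, and translation factors 7, beside 2. Membrane traffic, ion pumps and transport supplied 15 genes, beside 3 among the members. Cox17, a copper chaperone of cytochrome c oxidase, Cfl1, an actin-severing cofilin, and Zar1, which binds stored maternal mRNA, were among these genes, with means of 605.9, 603.8 and 597.0 FPKM.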
